A study of Bos taurus with 30 samples.

Results

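The miRNAs of the miR-424, miR-503, miR-542 and miR-450 genes were followed in the testes of young bull calves. The members were all rows of the deposited table named miR-424, miR-503, miR-542 or miR-450, with any letter or arm. This rule uses no measured value, though earlier results of these data were known when it was set. This gave 7 of 1030 bovine miRNAs, listed there as bta-miR-424-5p, bta-miR-424-3p, bta-miR-503-5p, bta-miR-503-3p, bta-miR-542-5p, bta-miR-450a and bta-miR-450b and named below without the species prefix. Small RNA was sequenced from whole testis of 30 Holstein-Friesian calves, with 1 library per calf, to ask whether early feeding changes testicular miRNAs. The High group (15 calves) drank 10 L of milk replacer made from 1.5 kg of powder daily with concentrate always on offer, and was meant to gain 1.0 kg daily. The Moderate group (15 calves) drank 4 L made from 0.5 kg, ate 0.5 kg of concentrate daily and was meant to gain 0.5 kg. Both diets ran from 2 to 12 weeks of age, when the testes were collected.

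miRNAs are short RNAs that lower the stability and translation of the mRNAs they pair with, mainly through the seed, a short stretch near the 5′ end. Each is cut from a hairpin whose 5′ and 3′ sides give the 5p and the 3p arm, and usually one arm is kept and the other is degraded. miR-424 is the human and bovine counterpart of mouse miR-322. miR-424-5p and miR-503-5p are seed relatives of the miR-15 and miR-16 family and in human and mouse cells repress cell cycle genes such as CDC25A and the D-type cyclins, while miR-322 and miR-503 favour muscle cell differentiation in mouse. In the prepubertal testis, Sertoli cells and early germ cells divide and fix much of the later capacity to make sperm.

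All 7 members matched a gene on chromosome X in RefSeq's ARS-UCD2.0 table. The 6 genes lie in the order MIR450B, MIR450A-1, MIR450A-2, MIR542, MIR503 and MIR424, between the protein-coding genes HPRT1 and PLAC1 and with none of that kind among them. The gene MIR3601 overlaps MIR542, and miR-3601 was listed at 0 in all 30 libraries. miR-450a can come from MIR450A-1 and MIR450A-2, which the table does not separate, and in 9 libraries its reads, recovered from the deposited values, included a part read of 0.5, so its level is uncertain. The other 6 members held whole reads in every library.

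Libraries held 6.0003 to 19.98 M reads. They fell into 24 libraries of up to 10.3 M reads, 11 High and 13 Moderate, and 6 libraries from 16.7 M reads, 4 High and 2 Moderate. Diet below is the diet characteristic of each library, but 18 of the 30 carry the opposite diet in their title. One library, Moderate replicate 5, stood apart: 84.8% of its reads were miR-10b (37.0% to 49.0% in the other 29), and it listed 476 miRNAs above 0 (579 to 682 in the other 29). Results that rest on it are given with and without it. The gonadal miRNA miR-202 was at 2335 ± 211 in High and 2315 ± 549 in Moderate libraries (SD, n = 15 each), while the summed value of the liver miRNA miR-122 did not exceed 2.84 in any High and 0.476 in any Moderate library. Values are the deposited ones, TMM-scaled CPM: reads brought to a common library size after trimmed-mean scaling. In whole testis, fewer cells of a type and less RNA per cell cannot be told apart.

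The cluster was well expressed, and its 7 products spanned nearly 2 orders of magnitude. miR-424-5p, the cell cycle repressor, was the most abundant member and ranked 24 of the 387 miRNAs tested by mean value, and miR-450b ranked 37. miR-450a ranked 63, miR-542-5p 90, miR-424-3p 96, miR-503-3p 139 and miR-503-5p 161. Together the members took 0.838% ± 0.075 of the reads in High libraries and 0.728% ± 0.207 in Moderate ones (SD, n = 15 each), and 0.776% ± 0.094 in the 14 Moderate libraries without replicate 5. Of the summed value of the members, miR-424-5p made up 48.9% ± 2.73 in High and 50.6% ± 6.49 in Moderate libraries, and miR-450b 32.6% ± 2.19 in High and 30.3% ± 3.74 in Moderate libraries.

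miR-424-5p had a lowest, median and highest value of 3330, 3854 and 4186 in High libraries, against 735, 3949 and 4578 in Moderate ones. The lowest Moderate library after replicate 5 stood at 3223, so the diets overlapped almost entirely. For miR-424-5p 4 of 15 High libraries lay above the Moderate median, with or without replicate 5. miR-450b had 2193, 2550 and 3029 in High libraries, against 843, 2225 and 2710 in Moderate ones. The lowest High library lay above 7 of the 15 Moderate ones, and 12 of 15 High libraries lay above the Moderate median (11 without replicate 5). miR-450a had 659, 768 and 934 in High libraries, against 183, 691 and 818 in Moderate ones. For miR-450a 14 of 15 High libraries lay above the Moderate median (12 without replicate 5), and the ranges still overlapped.

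**Figure D1:**
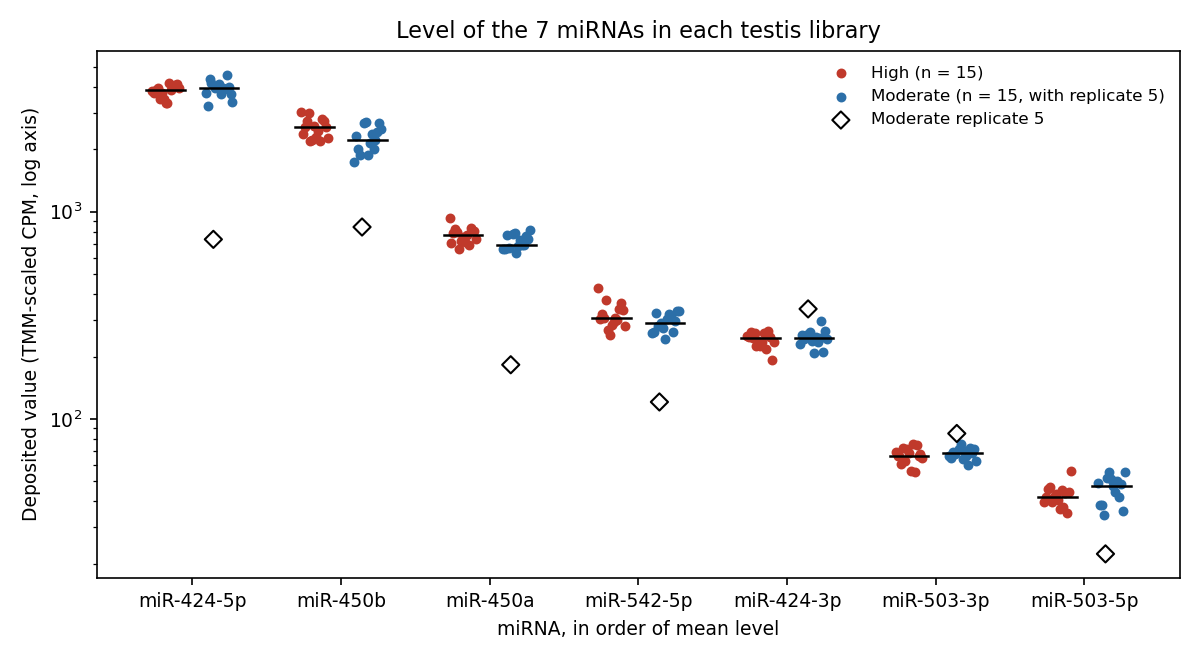
Deposited value (TMM-scaled CPM, log axis) of each member in each library, High to the left of Moderate, with members in order of mean level. Points are libraries, black bars are medians of 15, and the open diamond is Moderate replicate 5, which lies below all others for miR-424-5p (735), miR-450b (843), miR-450a (183), miR-542-5p (121) and miR-503-5p (22.4) and above all others for miR-424-3p (340) and miR-503-3p (85.1).

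miR-542-5p had 255, 307 and 427 in High libraries, against 121, 291 and 332 in Moderate ones. miR-424-3p had 193, 247 and 266 in High libraries, against 207, 246 and 340 in Moderate ones. These groups overlapped, with the single highest value of miR-542-5p in a High library and that of miR-424-3p in Moderate replicate 5.

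The least abundant members were the arms of miR-503, whose 5p arm represses cyclin D1 in human cells. miR-503-3p had 55.4, 66.5 and 75.5 in High libraries, against 60.2, 68.3 and 85.1 in Moderate ones. miR-503-5p had 35.3, 42.3 and 55.9 in High libraries, against 22.4, 47.8 and 55.8 in Moderate ones. For miR-503-5p 1 of 15 High libraries lay above the Moderate median, but apart from Moderate replicate 5 the ranges of the diets nearly coincided.

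The order of the members held in nearly every calf. miR-424-5p exceeded miR-450b 1.58-fold on average of log2 values (29 of 30 libraries). miR-450b exceeded miR-450a 3.24-fold, miR-450a exceeded miR-542-5p 2.41-fold, miR-424-3p exceeded miR-503-3p 3.60-fold and miR-503-3p exceeded miR-503-5p 1.57-fold, each in 30 of 30 libraries. Each of these 5 steps gave a two-sided sign-flip permutation p of 1e-05 over libraries, the smallest that 100000 resamples can give, with an adjusted p of 1.2e-05 over the 6 neighbour pairs. miR-542-5p exceeded miR-424-3p by the least, 0.26 on the log2 scale, in 28 of 30 libraries (sign-flip permutation p = 0.00048, adjusted p = 0.00048). Among the 15 Moderate libraries alone this last step did not pass, at 1.10-fold (exact sign-flip permutation p = 0.310). Ligation and amplification favour some miRNA sequences, so these steps compare read levels of different sequences, not molecules.

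miR-424 and miR-503 differed in which arm had more reads. miR-424-5p was read more than its 3p arm in all 30 libraries, with a ratio of 5p to 3p of 13.5 to 21.5 (median 15.2) in High libraries and of 2.17 to 19.9 (median 15.8) in Moderate ones, where the lowest was replicate 5 and the next 12.7. miR-503 ran the other way: the 3p arm exceeded the 5p arm in all 30 libraries, and the ratio of 5p to 3p was 0.532 to 0.863 (median 0.635) in High libraries and 0.501 to 0.883 (median 0.696) in the 14 Moderate libraries other than replicate 5. Reads of the neighbouring genes thus favoured opposite arms in the same calves. In the 29 libraries the median excess was 15.8-fold for miR-424-5p but only 1.52-fold for miR-503-3p. The arms are different sequences, so these ratios compare reads, not molecules. Among the 32 miRNAs with both arms tested, 13 had a median 3p value above that of the 5p arm.

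**Figure D2:**
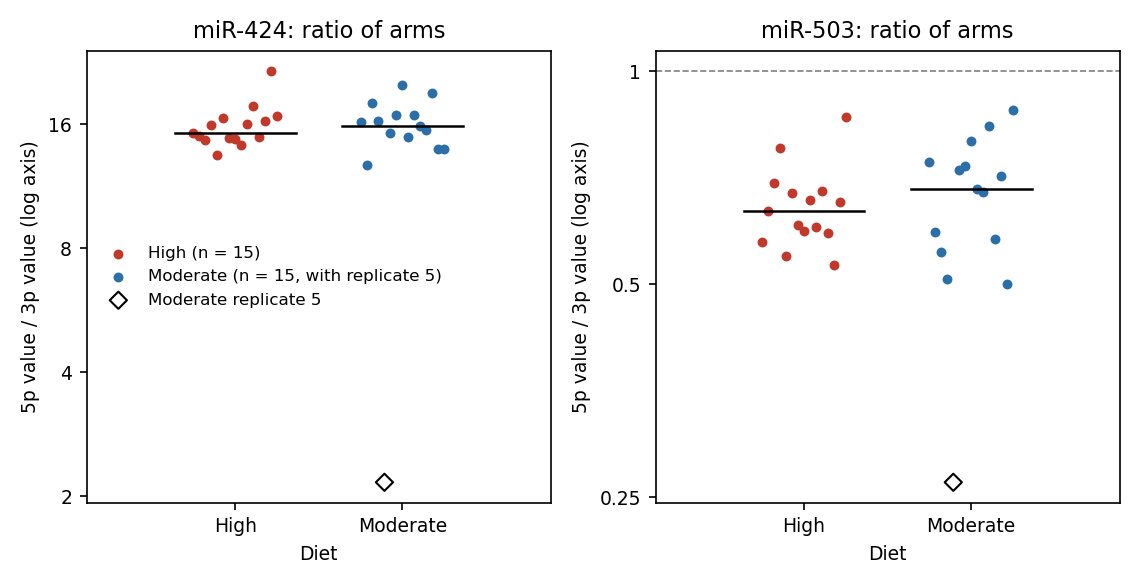
Ratio of the 5p to the 3p value of miR-424 (left) and miR-503 (right) in each library (log axis), High to the left of Moderate, with black bars at medians of 15. All libraries lie above 12 for miR-424 and between 0.5 and 0.9 for miR-503, except Moderate replicate 5 (open diamond) at 2.17 and 0.263, and the dashed line marks equal arms.

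The ratio of arms, which library scaling cannot move, was not shown to differ with diet. The log2 ratio of miR-424 averaged 3.98 ± 0.16 in High and 3.80 ± 0.76 in Moderate libraries (SD, n = 15 each), a difference of 0.17 with a standard error of 0.20 (permutation p = 0.617, two-sided, 0.871 adjusted over both arm pairs). Without Moderate replicate 5 the difference was -0.02 with a standard error of 0.06 (permutation p = 0.768, adjusted p = 0.768). The log2 ratio of miR-503 averaged -0.64 ± 0.18 in High and -0.66 ± 0.42 in Moderate libraries, a difference of 0.02 with a standard error of 0.12 (permutation p = 0.871, adjusted p = 0.871). It turned to -0.07 without Moderate replicate 5, with a standard error of 0.08 (permutation p = 0.428, adjusted p = 0.768).

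In Moderate replicate 5 the arms came apart. The ratio of 5p to 3p was 2.17 for miR-424, against 12.7 to 21.5 in the other 29 libraries, and 0.263 for miR-503, against 0.501 to 0.883. On the deposited scale both 5p arms stood below and both 3p arms above all other libraries. As a share of all reads scaled like CPM, however, each of the 7 members was below all others there, for example miR-503-3p at 20.2 against 55.1 to 89.9 and miR-450b at 199.6 against 1812 to 3300. Other miRNAs shifted in this library too: of the 32 arm pairs, 11 lay below and 12 above the range of the other 29 libraries. That of miR-424, -2.87 on the log2 scale from the median of the others, was the third lowest. In the same library the summed red blood cell miRNAs miR-144, miR-451 and miR-486 stood at 7927, against 755 to 3606 in the other 29. Within that sum miR-486 was at 7898, against 715 to 3301 in the other 29, while miR-451, which defines red cells, was below its range of 36.7 to 289 in the other 29. The summed endothelial miR-126 arms were at 5125, against 8981 to 14721. Also below their ranges were the sums of the gonadal somatic (1893, against 3361 to 5057), fibroblast, spermatogonial, germ cell and striated muscle miRNAs. Those of the smooth muscle, leukocyte and epithelial miRNAs lay within theirs. The part of these cell types in the arm values was not tested.

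The genes at one end of the cluster varied together between calves. Over the 29 libraries other than Moderate replicate 5, log2 levels of miR-450a and miR-450b had a Pearson r of 0.83 and a Spearman rho of 0.84 (permutation p = 1e-05 for each, the smallest possible; 0.000105 and 0.00021 adjusted over 21 member pairs). miR-450a and miR-542-5p had an r of 0.79 and a rho of 0.75 (permutation p = 1e-05 and 2e-05, adjusted p = 0.000105 and 0.00021). For miR-450b and miR-542-5p r was 0.66 and rho 0.61 (permutation p = 0.00012 and 0.00059, adjusted p = 0.00084 and 0.00413). With the 2 libraries farthest from the median of the first miRNA of each pair left out, r was 0.78, 0.67 and 0.57. As context, 0.0937%, 0.134% and 0.514% of all 74691 pairs of tested miRNAs had an r at least as high as these in the same 29 libraries, and the median r was 0.00.

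On the deposited scale miR-424 and miR-503 did not follow them. The other 18 member pairs had r between -0.26 and 0.40 in the 29 libraries, and 0 of 18 passed an adjusted p of 0.05 by Pearson r. miR-424-5p and miR-450a had an r of 0.07 (permutation p = 0.725, adjusted p = 0.846), and the arms of miR-424 had 0.08 and those of miR-503 0.10. The 3p arms of miR-424 and miR-503 reached an r of 0.40 (permutation p = 0.0333, adjusted p = 0.175) and a rho of 0.51 (permutation p = 0.00528, adjusted p = 0.0277).

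**Figure D3:**
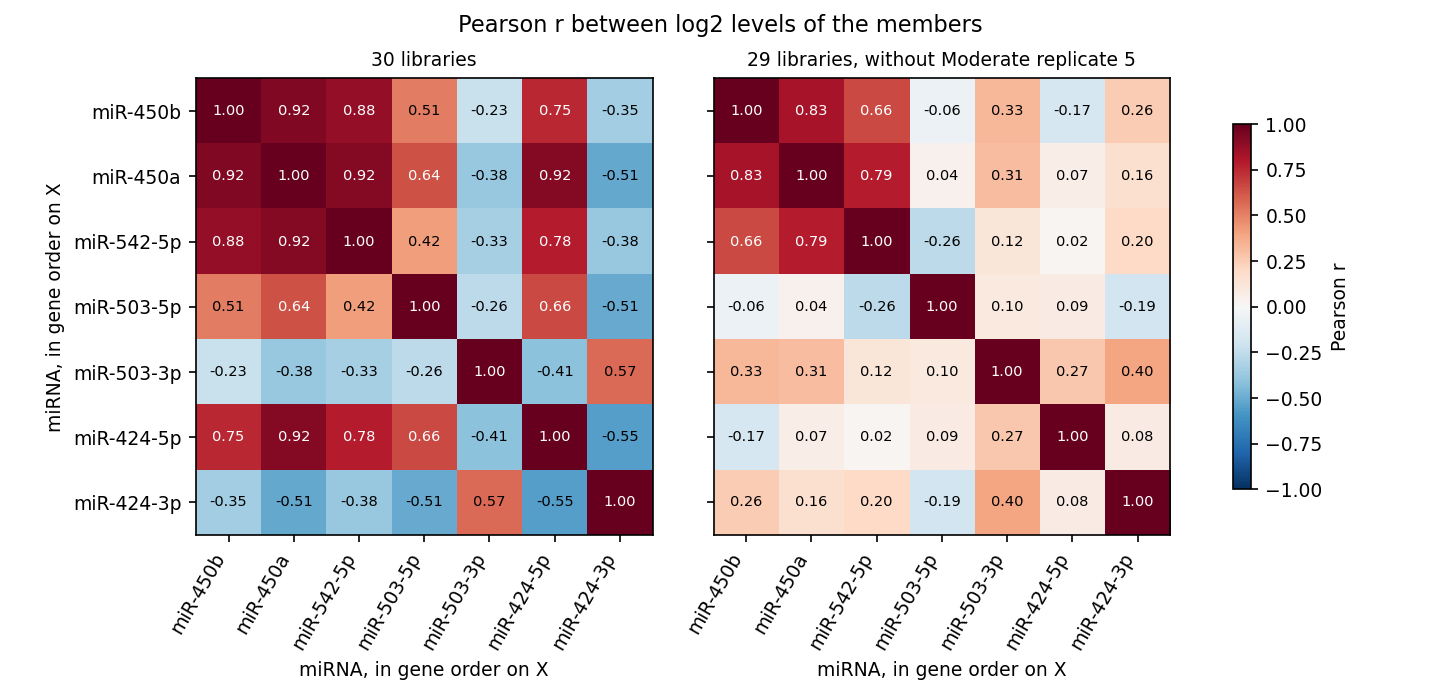
Pearson r between log2(value + 0.5) of each pair of members, in gene order along chromosome X, over 30 libraries (left) and over 29 without Moderate replicate 5 (right). In the right panel the block of miR-450b, miR-450a and miR-542-5p keeps r of 0.66 to 0.83, while the r of 0.92 between miR-424-5p and miR-450a seen on the left is 0.07.

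Over all 30 libraries 13 of 21 pairs passed, 10 with a positive and 3 with a negative r, and most of this rested on Moderate replicate 5. miR-424-5p and miR-450a, for instance, had an r of 0.92 (permutation p = 0.012, adjusted p = 0.0359) but a rho of 0.21 (permutation p = 0.262). The block of 3 held within the High diet alone, where the same 3 pairs passed with r of 0.90, 0.84 and 0.86 (n = 15). In the 14 Moderate libraries without replicate 5 the r values were 0.72, 0.65 and 0.39, and 0 of 21 pairs passed (adjusted permutation p = 0.0924, 0.146 and 0.606 for these 3, raw 0.0044, 0.0139 and 0.164). With library totals as the only scaling, 16 of 21 pairs passed in the 29 libraries and the 3 pairs had r of 0.89, 0.87 and 0.79. The other 18 pairs had r of 0.11 to 0.72 on that scale. Pairs of miR-424 or miR-503 with the block were among those that passed, such as miR-424-5p and miR-450a (r = 0.58, permutation p = 0.00102, adjusted p = 0.00214). miR-424-5p and miR-450b did not pass (r = 0.32, permutation p = 0.0888, adjusted p = 0.104).

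**Figure D4:**
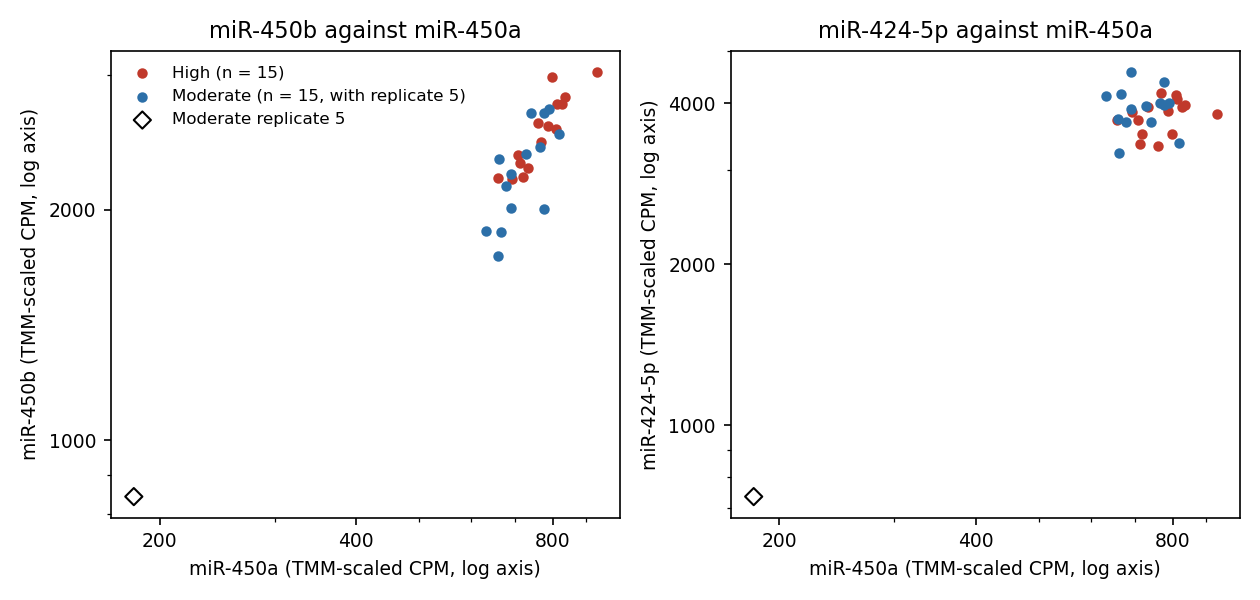
miR-450b (left) and miR-424-5p (right) against miR-450a, in TMM-scaled CPM on log axes, 1 point per library. miR-450b rises with miR-450a (r = 0.83 in 29 libraries) while miR-424-5p shows no such trend (r = 0.07), and Moderate replicate 5 (open diamond) lies far below the rest in both panels.

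Ratios between neighbours in the block varied little, but this was not particular to the block. Over the 29 libraries the SD of the log2 ratio was 0.12 for miR-450b over miR-450a and 0.11 for miR-450a over miR-542-5p. It was 0.13 for miR-424-3p over miR-503-3p, outside the block, and 0.20 to 0.25 for the other neighbours in order of level. The ratio of miR-450b to miR-450a was 3.07 to 3.73 (median 3.27) in High libraries and 2.59 to 4.62 (median 3.17) in Moderate ones, where the highest was replicate 5 and the next 3.61. The ratio of miR-450a to miR-542-5p was 2.13 to 2.82 (median 2.45) in High libraries and 1.51 to 2.88 (median 2.46) in Moderate ones, where the lowest was replicate 5 and the next 2.21. Members varied little from calf to calf. Over the 29 libraries the SD of the log2 level was 0.11 for miR-503-3p, 0.12 for miR-424-5p and 0.13 for miR-424-3p and for miR-450a. It was 0.18 for miR-542-5p and 0.20 for miR-450b and miR-503-5p. The median over the tested miRNAs was 0.27. These were not matched to the members for level, and the members ranked 24 to 161 of 387 by mean value. The counting error in the library with the fewest reads of these 29 was 0.643% for miR-424-5p (24157 reads), 4.79% for miR-503-3p (435 reads) and 6.21% for miR-503-5p (259 reads). The coefficients of variation of these values over the 29 libraries were 8.23%, 7.72% and 14.1%. Moderate replicate 5 had 47 reads of miR-503-5p, a counting error of 14.6%.

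None of the 7 members was called changed by diet. In limma on log2(value + 0.5), with p-values adjusted over all 387 miRNAs tested by the Benjamini-Hochberg method and a threshold of 0.05, 0 of 7 members passed, where 4.91% of all miRNAs tested did. miR-450b came nearest: it averaged 2535 ± 282 in High and 2161 ± 480 in Moderate libraries (SD, n = 15 each), which is 0.27 on the log2 scale (standard error 0.11, 95% confidence interval 0.04 to 0.49, unadjusted p = 0.0213 and adjusted p = 0.135 in limma). Of the 7 members, it was the 1 with an unadjusted p under 0.05 in limma, a level that 21.2% of all tested miRNAs reached. On the recovered reads 0 of 7 members passed as well. miR-450b had an adjusted p of 0.124 in edgeR, where 7.96% of 377 miRNAs passed. In DESeq2 its adjusted p was 0.0946, where 5.61% of 838 miRNAs passed. At an unadjusted p under 0.05 there was 1 of 7 in edgeR, where 24.7% of the 377 reached it. In DESeq2 there were 2 of 7, where 12.3% of the 838 did. The 838 had no filter on level, unlike the 377 and the 387, so these shares are not directly comparable.

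Without Moderate replicate 5 the difference in miR-450b was smaller but better resolved. It averaged 2535 ± 282 in High and 2255 ± 324 in the 14 Moderate libraries, which is 0.17 on the log2 scale (standard error 0.07, 95% confidence interval 0.04 to 0.31, adjusted p = 0.0798 in limma). Again 0 of 7 members passed, where 11.7% of 385 miRNAs did, and 2 of 7 (miR-450b and miR-450a) had an unadjusted p under 0.05, where 29.9% did. It passed in 1 of the alternatives run, upper-quartile scaling without that library (log2 fold change 0.20, adjusted p = 0.0420 in limma, where 11.9% of miRNAs passed).

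The other members of the block had positive log2 fold changes with intervals that spanned 0 over the 30 libraries. miR-450a averaged 771 ± 69.8 in High and 684 ± 150 in Moderate libraries, which is 0.23 on the log2 scale (standard error 0.13, 95% confidence interval -0.04 to 0.50, adjusted p = 0.338 in limma), and 0.10 (0.00 to 0.19, adjusted p = 0.162) without Moderate replicate 5. miR-542-5p averaged 317 ± 44.7 in High and 281 ± 52.8 in Moderate libraries, which is 0.20 on the log2 scale (standard error 0.10, 95% confidence interval -0.01 to 0.40, adjusted p = 0.270 in limma), and 0.11 (-0.02 to 0.24, adjusted p = 0.252) without that library.

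For miR-424 and miR-503 the intervals spanned 0 with and without Moderate replicate 5. miR-424-5p averaged 3795 ± 270 in High and 3701 ± 891 in Moderate libraries, with a log2 fold change of 0.12 (95% confidence interval -0.20 to 0.44, adjusted p = 0.720 in limma) that turned to -0.04 (-0.13 to 0.05, adjusted p = 0.601) without Moderate replicate 5. miR-424-3p stood at -0.05 (-0.18 to 0.07), miR-503-3p at -0.05 (-0.16 to 0.06) and miR-503-5p at -0.03 (-0.23 to 0.17), with adjusted p of 0.649, 0.606 and 0.872 in limma. These were, without Moderate replicate 5, -0.02, -0.03 and -0.10, the last with a 95% confidence interval of -0.25 to 0.05 (adjusted p = 0.417 in limma). With library totals alone, which moved the median log2 fold change of all tested miRNAs to 0.21, all 7 estimates were positive, from 0.16 to 0.48. On that scale 0 of 7 members and 0% of all 389 miRNAs passed in limma, with 1 member and 61 of all miRNAs at an unadjusted p under 0.05. The ratio of miR-450b to miR-424-5p, chosen after the values were seen and not tested, had a median of 0.666 (0.569 to 0.850) in High libraries and of 0.599 (0.449 to 1.15) in Moderate ones.

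**Figure D5:**
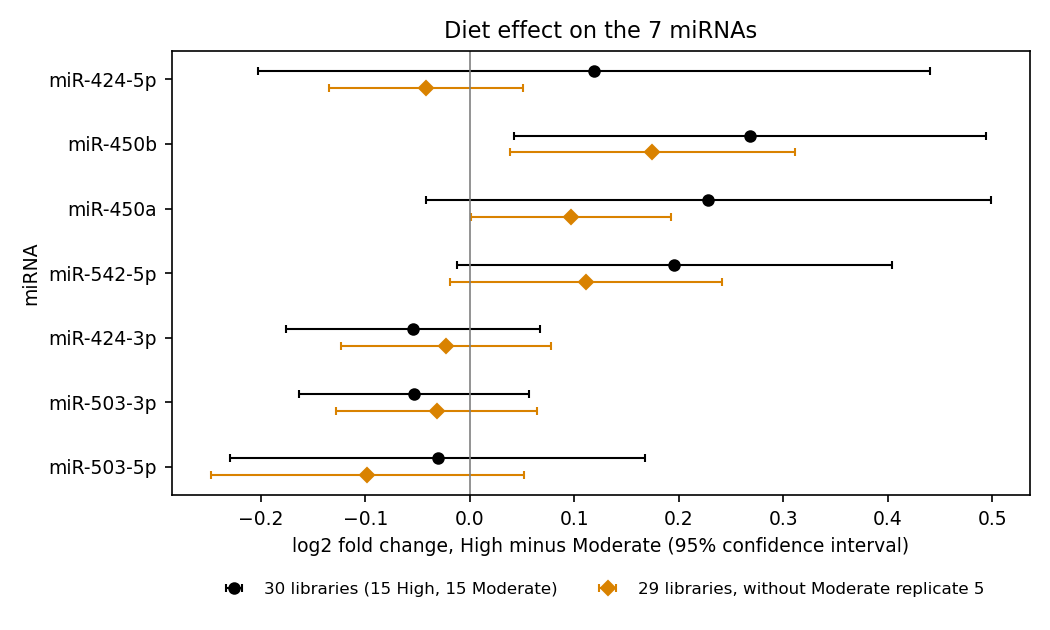
Log2 fold change of each member, High minus Moderate, with its 95% confidence interval from limma, over 30 libraries (black circles) and over 29 without Moderate replicate 5 (orange diamonds). miR-450b (0.27 and 0.17) has an interval above 0 in both fits but an adjusted p of 0.135 and 0.0798, and miR-424-5p moves from one side of 0 to the other (0.12 and -0.04).

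The estimates were set against depth and against the conflicting labels. In the 24 libraries under 12 M reads miR-450b stood at 0.29 (11 High against 13 Moderate, adjusted p = 0.253 in limma), and 0 of 7 members passed, where 0.779% of all miRNAs did. With Moderate replicate 5 left out of these it stood at 0.18 (adjusted p = 0.156 in limma), and 0 of 7 members passed, where 8.09% did. In the 6 deeper libraries it had 2575, 2747, 2202 and 2454 in High libraries, against 2328 and 2151 in Moderate ones, and the groups overlapped. Its log2 fold change there was 0.15 (adjusted p = 0.642 in limma), and 0 of 7 members passed, where 0.504% of 397 miRNAs did, with 0 members and 43 of all miRNAs at an unadjusted p under 0.05. In the 12 libraries whose title and characteristic give the same diet, the log2 fold changes of miR-450b, miR-450a and miR-542-5p were 0.49, 0.48 and 0.45, and in the 18 with conflicting labels 0.12, 0.06 and 0.02, with 0 of 7 members and 0% of all miRNAs passing in either. At an unadjusted p under 0.05 there were 0 of 7 members in each set, and 43 and 58 of all miRNAs. The difference between these sets of libraries was tested as an interaction of diet with label agreement in limma: the smallest p was that of miR-542-5p (0.43 with a standard error of 0.20, unadjusted p = 0.0371, adjusted p = 0.785), and 0 of 387 miRNAs passed (0%), with 16 at an unadjusted p under 0.05. Moderate replicate 5 is among the 12, and without it the log2 fold changes of miR-450b, miR-450a and miR-542-5p in the other 11 were 0.26, 0.16 and 0.26. In the 29 libraries the interaction of miR-542-5p was 0.23 (adjusted p = 0.974 in limma). The smallest p there was that of miR-503-5p (-0.33, unadjusted p = 0.0249, adjusted p = 0.816 in limma). Of 385 miRNAs 0 passed in that fit, with 15 at an unadjusted p under 0.05. By the diet in the titles, miR-450b stood at 0.12 (adjusted p = 0.981 in limma), or 0.026 without Moderate replicate 5 (adjusted p = 0.993), and 0 of 7 members and 0% of all miRNAs passed in either fit. At an unadjusted p under 0.05 there were 0 members in both fits, and 11 of all miRNAs in the 30 and 13 in the 29 libraries.

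The autosomal seed relatives of miR-424-5p and miR-503-5p all had positive estimates, and 1 of the 6 tested rose. Of all miRNAs tested in this fit, 4.91% passed. miR-497, a repressor of cyclin genes in human cells, averaged 256 ± 30.1 in High and 200.4 ± 44.7 in Moderate libraries (log2 fold change 0.40, adjusted p = 0.0462 in limma). This call was lost without High replicate 5, where 0 of 385 miRNAs passed in limma. It was also lost with library totals alone, without a filter, in either label set and by the titles. In each of these 0% of all miRNAs passed. Without Moderate replicate 5 miR-497 was at 0.29 (adjusted p = 0.00665 in limma). It was again the 1 of the 6 that passed, where 11.7% of all 385 miRNAs did. In the 30 libraries the 5 that did not pass were miR-16a at 0.21, miR-16b at 0.20, miR-195 at 0.20, miR-15a at 0.13 and miR-15b at 0.09. The median of the 6 was 0.20, beside 0.03 over all tested miRNAs, and 0.13 beside 0.00 without Moderate replicate 5. Among 30 tested miRNAs from other X-linked genes, 0 rose and 0 fell in limma, with log2 fold changes from -0.40 to 0.48 and a median of 0.03. In the 29 libraries other than Moderate replicate 5, 2 of these 30 rose, where 11.7% of all 385 miRNAs passed. These 2 were miR-421 (0.24, adjusted p = 0.0354 in limma) and miR-374a (0.15, adjusted p = 0.0148).

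Markers of other cell types gave no diet call beyond the germ cell miRNAs in the 30 libraries: miR-34b and miR-34c rose among 3 tested miRNAs of meiotic and later germ cells, and 0 of 2 smooth muscle, 2 endothelial, 3 red blood cell, 7 leukocyte, 4 epithelial, 3 striated muscle, 4 spermatogonial, 2 gonadal somatic and 4 fibroblast miRNAs passed. Of all 387 miRNAs tested in the 30 libraries, 4.91% passed. The log2 fold changes of miR-34b and miR-34c were 0.73 and 0.96 (adjusted p = 0.0313 and 0.0260 in limma). The third germ cell miRNA tested, miR-449a, was at 0.02 (adjusted p = 0.949 in limma). Both germ cell calls were lost without High replicate 5. They were also lost with library totals alone, without a filter, in either label set and by the titles, where 0% of all miRNAs passed. Without Moderate replicate 5, miR-146b of the leukocyte list and miR-499 of the striated muscle list also rose, and miR-199a-5p of the fibroblast list fell. In that fit 11.7% of all 385 miRNAs passed. The summed germ cell markers were at 90.5 to 265 in High and 22.8 to 185 in Moderate libraries, and their part in the members' levels was not tested.

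The miRNAs whose levels ran closest to the mean standardised level of the 7 members were miR-33a (Pearson r = 0.86), miR-30d (0.85), miR-30e-5p (0.84), miR-20a (0.82) and miR-2285g (0.82) over 30 libraries, among 380 compared. Without Moderate replicate 5 the closest were miR-148b (0.62), miR-33a (0.57), miR-100 (0.54), miR-2313-5p (0.54) and miR-2313-3p (0.53). miR-33a, which represses cholesterol export genes, was the 1 miRNA on both lists. These are descriptions over libraries that share their scaling, and they were picked as the highest of many.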

How the data were processed

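The authors deposited 1 table with a column per library, whose normalized signal values were found from the numbers themselves to be CPM of TMM-scaled library sizes. Each column's values were divided by the value of a single read, and 95.3% of 18379 values above 0 came out whole (tolerance 0.02 read). TMM factors recomputed from these reads matched the deposited ones, with a largest natural log difference of 2.35e-05. FastQC 0.11.8, cutadapt 2.6, R 3.4 and edgeR 3.5 are named in the submitters' processing notes. The aligner, miRNA reference and build were not given in the sources used here. Illumina's TruSeq kit for small RNA was used, per the labels' protocols.

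The main test was limma 3.58.1 (R 4.3.3) on log2(value + 0.5), with its variance trend on and diet as the only term. It covered 387 miRNAs that reached 1 in 15 or more libraries, among them all 7 members. Fold changes of low miRNAs are understated on this scale. edgeR 4.0.16 (quasi-likelihood) and DESeq2 1.42.0 were run on the recovered reads rounded to whole numbers. Permutation tests (100000 resamples, two-sided) used numpy 2.4.6 and scipy 1.17.1. The scripts were tested on simulated data. Alternatives changed the tool, pseudocount, filter, scaling, libraries and labels used. The labels give 15 calves and 15 libraries per diet, and replicate numbers were assigned in accession order.

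The miRNAs named were the members, the seed relatives, the 5 with the highest r, and any X-linked or marker miRNA that was called. miR-449a was added as the third germ cell miRNA tested. The separate values of miR-486 and miR-451 and the ratio of miR-450b to miR-424-5p were chosen after the values were seen. The members and lists were chosen with earlier results of these data known. A count of 0 allows 3 reads, or 0.138 to 1.43 deposited units by library, for counting error only. Mature sequences are not used here.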

Additional observations from a re-analysis of the deposited data

How the results depend on the processing

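No paired analysis was possible because the replicate numbers only name libraries. The alternatives that combine another setting with leaving out Moderate replicate 5 were chosen after seeing the data, except library totals of the diet fit, as was the fit in the libraries from 12 M reads. The number of members past the threshold was 0 throughout, except 1 (miR-450b, log2 fold change 0.20) with upper-quartile scaling without Moderate replicate 5. Leaving out 1 library at a time gave log2 fold changes of 0.17 to 0.29 for miR-450b, 0.10 to 0.25 for miR-450a, 0.11 to 0.22 for miR-542-5p, -0.042 to 0.15 for miR-424-5p, -0.074 to -0.023 for miR-424-3p, -0.067 to -0.032 for miR-503-3p and -0.098 to -0.0052 for miR-503-5p.

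Small estimates turned sign, and the cause was not tested. With library totals, which raise the median of all miRNAs, miR-424-3p was at 0.16, miR-503-3p at 0.16 and miR-503-5p at 0.17, and without Moderate replicate 5 miR-424-3p and miR-503-3p were at 0.048 and 0.039. By the titles miR-424-3p was at 0.024, and at 0.058 without that library. With it left out, miR-424-3p was also at 0.048 in the libraries whose labels match and at 0.0057 with upper-quartile scaling. miR-424-5p was at -0.032 and miR-503-5p at 0.025 in the 18 libraries with conflicting labels, and miR-503-5p at 0.076 in the 6 libraries from 16.7 M reads. With Moderate replicate 5 left out, miR-424-5p was at -0.034 in edgeR, -0.035 in DESeq2, -0.028 with median-of-ratios scaling, -0.013 with upper-quartile scaling, -0.090 under 12 M reads, -0.057 where labels match, -0.0022 by the titles and -0.035 with depth as a covariate, and its interaction with label agreement was -0.025. The arm difference was -0.019 to 0.21 for miR-424 and -0.066 to 0.057 for miR-503 when 1 library was left out, and for miR-503 -0.0099 under 12 M reads, -0.015 where labels match and -0.035 by the titles. miR-542-5p over miR-424-3p was 0.14 (log2) in Moderate libraries alone.

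Of 21 member pairs, 13 passed in 30 libraries, 3 without Moderate replicate 5, 3 in High alone, 7 in Moderate alone, 0 in Moderate without replicate 5 and 21 with library totals. The r between the arms of miR-424 was -0.55, but 0.081 without Moderate replicate 5, 0.028 in High, 0.096 in Moderate without replicate 5, 0.89 with totals and 0.51 with totals without replicate 5. Between the arms of miR-503 it was -0.26, but 0.097 without Moderate replicate 5, 0.24 in High, 0.89 with totals and 0.40 with totals without replicate 5. In Moderate without replicate 5, r was -0.026 for miR-424-5p with miR-450a and -0.13 with miR-503-5p. The arms of miR-503 are limited most by depth.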
